A study of Mus musculus with 6 samples.

Results

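The genes described here encode 10 plasma proteins that mouse liver releases in the acute phase response: the serum amyloid A genes Saa1, Saa2, Saa3 and Saa4, the lipocalin gene Lcn2, the orosomucoid genes Orm1 and Orm2, the haptoglobin gene Hp, the haemopexin gene Hpx and the serum amyloid P gene Apcs. They were taken by name from a table of 55487 genes, and all 10 were among the 14046 genes with enough counts to be tested. The values come from bulk liver RNA-seq of wild-type male C57BL/6J mice kept on a normal chow diet, which received GalNAc-siNC or GalNAc-siRnf10 under the skin and whose livers were taken at 17 weeks of age. Each group had 3 mice with 1 library per mouse, and the sample labels set no batches apart. GalNAc is a sugar that is taken up by the asialoglycoprotein receptor of hepatocytes, so the siRNA it carries is directed to that cell type. GalNAc-siNC carries a control siRNA, and GalNAc-siRnf10 carries an siRNA against Rnf10, which encodes a RING-type E3 ubiquitin ligase. The study sequenced these livers to assess off-target effects of the siRNA on other genes, and it reported no strong ones. The dose and the days of injection of these mice were not given in the sources used here.

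The acute phase response is the change in plasma proteins that follows infection or injury. IL-6 and related cytokines act through JAK kinases and STAT3 in hepatocytes, while IL-1 and TNF act through NF-κB, and C/EBP factors act beside both. Together they raise the positive acute phase genes, of which the serum amyloid A genes are among the most inducible in the mouse, while the transcripts of negative acute phase proteins such as albumin and transthyretin fall. SAA1 and SAA2 circulate on high-density lipoprotein, SAA3 is made mainly outside the liver, and SAA4 is the constitutive form. Lipocalin 2 binds bacterial siderophores, orosomucoids carry basic drugs and lipids, haptoglobin binds free haemoglobin, haemopexin binds free haem, and serum amyloid P is a pentraxin found in all amyloid deposits.

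All 10 transcripts were lower in GalNAc-siRnf10 livers than in GalNAc-siNC livers. Lcn2 fell most, by 63.1%, followed by Orm2 (59.3%), Saa2 (59.1%), Saa3 (55.0%), Saa1 (52.7%) and Apcs (51.4%). The falls of Orm1 (37.8%), Saa4 (36.3%), Hp (35.0%) and Hpx (29.7%) were smaller. Each of the 10 passed the test across all genes (edgeR quasi-likelihood F-test, Benjamini-Hochberg adjusted p under 0.05), in a table where 7.28% of tested genes were called lower and 14.0% were called in either direction. For each of the 10 genes, every GalNAc-siRnf10 mouse was below every GalNAc-siNC mouse, which held for 16.4% of tested genes. Called genes that fell at least as far as Hpx on the log2 scale were 2.93% of those tested. With 3 mice against 3, the exact two-sided permutation test of any one gene could not go below p = 0.1, and it gave 0.1 for each of the 10.

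**Figure D1:**
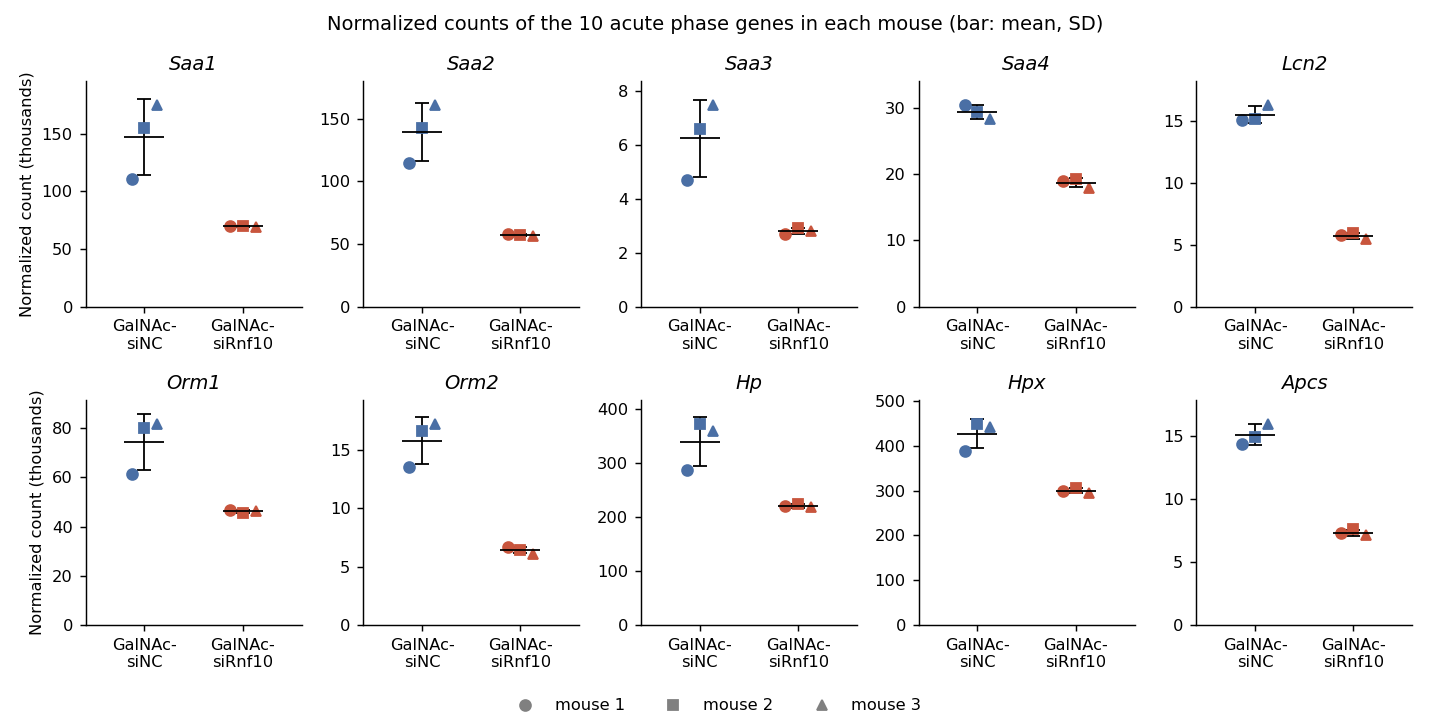
Normalized count, in units of 1000 and on axes that start at 0, of each of the 10 genes in each mouse, with the mean and SD of the 3 mice of a group. In every panel the 3 GalNAc-siRnf10 mice lie below the 3 GalNAc-siNC mice, and GalNAc-siNC mouse 1 (circle) is the lowest of its group in all panels but that of Saa4.

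Depth and the state of the libraries bear on all of these values. The libraries held between 26854377 and 33058645 counts, and the 10 genes had at least 2394 raw counts in any library. Counting error was therefore small beside the spread between GalNAc-siNC mice. It was a larger part of the spread between GalNAc-siRnf10 mice. Rnf10 itself had normalized counts of 3869, 4536 and 4040 in GalNAc-siNC mice 1 to 3 and 1738, 1820 and 1793 in GalNAc-siRnf10 mice 1 to 3, a fall of 57.0%. The GalNAc-siNC libraries were less alike than the others. GalNAc-siNC mouse 1 differed from the other two of its group by a chi-square of 31.4 and 30.6 per gene, against 10.5 between those, and the 3 GalNAc-siRnf10 pairs lay between 4.75 and 5.46. The log2 fold changes of the 10 genes, the ratios and the summed share are therefore given with and without GalNAc-siNC mouse 1 below.

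Sequences are shown first for the pairs of near-identical genes, because a read must be assigned to one of them. The 4 serum amyloid A genes lie in one cluster (GRCm38) at chr7:46711998-46715700 (Saa3, minus strand), chr7:46727998-46732603 (Saa4, minus strand), chr7:46740497-46742980 (Saa1, minus strand) and chr7:46751790-46754313 (Saa2, plus strand). The coding sequences of Saa1 and Saa2 were 95.1% identical, with 18 differing bases of 366. A stretch of 90 coding bases, from position 60 to 149 of the coding sequence and read across an intron, holds 11 of them, in capitals.

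Saa1: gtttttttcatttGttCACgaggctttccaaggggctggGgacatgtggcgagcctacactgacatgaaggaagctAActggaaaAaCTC
Saa2: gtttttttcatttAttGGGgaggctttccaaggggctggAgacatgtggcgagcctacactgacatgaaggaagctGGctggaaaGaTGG

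Orm1 (chr4:63344560-63348163) and Orm2 (chr4:63362449-63365878) lie side by side on the plus strand, and their coding sequences were 89.9% identical, with 63 differing bases of 621. The 90 coding bases from position 139 to 228 lie within 1 exon and hold 20 of the differences, in capitals.

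Orm1: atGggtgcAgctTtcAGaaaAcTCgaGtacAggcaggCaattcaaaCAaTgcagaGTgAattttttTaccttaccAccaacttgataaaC
Orm2: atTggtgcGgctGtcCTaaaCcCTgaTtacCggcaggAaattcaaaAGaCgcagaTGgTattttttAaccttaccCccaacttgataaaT

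The longest run shared by the transcripts was 99 bases for Saa1 and Saa2 and 141 bases for Orm1 and Orm2, and no window of 150 bases, the read length, in any of the 10 transcripts was found whole in a transcript of another gene. A read of full length inside these transcripts therefore differs from every annotated transcript of another gene by at least 1 base. The windows came from the first coding transcript of each gene, and its further transcripts were not checked. How the authors' counting treated reads with several alignments was not given in the sources used here. The counts of Saa1 and Saa2 and of Orm1 and Orm2 carry that uncertainty. No exon of the 10 genes overlapped an exon of another gene in the deposited table.

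The promoters are shown because the 10 genes moved together. The RefSeq table (GRCm38.p6) held a promoter for 8 of the 10 genes, and Orm1 and Hp had none there. The RefSeq start of Lcn2 lies inside the gene as it was counted (chr2:32384633-32388252), which holds the whole Lcn2 stretch printed below. The motif match of Lcn2 rests on that start. The motifs searched on both strands of 300 bases around each start site (250 before it and 50 from it on) were TTCNNNGAA, the palindrome that STAT factors bind, TTNNGNAA, a loose form of the C/EBP site, and the NF-κB consensus. TTNNGNAA was found in 7 of the 8 promoters, all but that of Apcs, and in 40.7% of the 32851 promoters of the table. TTCNNNGAA was found in 1 of the 8, that of Apcs, and in 8.3% of all promoters. The NF-κB consensus was found in none of the 8 and in 8.5% of all. These strict letters do not describe every site a factor binds. The 250 bases upstream of the start are printed for 5 genes, 5′ to 3′ on the strand of the gene, with matches to any of the 3 motifs in capitals: Saa1 (chr7:46742981-46743230, minus strand), Saa2 (chr7:46751583-46751832, plus strand), Lcn2 (chr2:32387740-32387989, minus strand), Orm2 (chr4:63362199-63362448, plus strand) and Apcs (chr1:172895055-172895304, minus strand).

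Saa1: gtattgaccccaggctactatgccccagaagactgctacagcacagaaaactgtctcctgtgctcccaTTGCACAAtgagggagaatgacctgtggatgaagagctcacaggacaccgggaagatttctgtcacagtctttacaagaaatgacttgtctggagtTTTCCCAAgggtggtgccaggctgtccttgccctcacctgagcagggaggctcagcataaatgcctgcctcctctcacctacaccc
Saa2: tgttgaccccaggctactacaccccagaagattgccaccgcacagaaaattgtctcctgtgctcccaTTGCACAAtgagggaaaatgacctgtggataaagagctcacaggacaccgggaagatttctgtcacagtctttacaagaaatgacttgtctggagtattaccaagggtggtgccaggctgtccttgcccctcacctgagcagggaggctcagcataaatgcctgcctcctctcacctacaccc
Lcn2: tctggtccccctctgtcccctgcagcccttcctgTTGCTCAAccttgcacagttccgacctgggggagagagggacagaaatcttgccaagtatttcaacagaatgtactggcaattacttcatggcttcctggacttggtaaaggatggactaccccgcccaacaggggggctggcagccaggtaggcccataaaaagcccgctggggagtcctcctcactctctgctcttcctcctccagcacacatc
Orm2: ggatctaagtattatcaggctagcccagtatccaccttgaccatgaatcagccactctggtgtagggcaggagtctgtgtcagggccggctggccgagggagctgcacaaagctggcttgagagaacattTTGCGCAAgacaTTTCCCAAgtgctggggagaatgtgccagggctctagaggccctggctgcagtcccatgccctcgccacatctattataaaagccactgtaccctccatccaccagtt
Apcs: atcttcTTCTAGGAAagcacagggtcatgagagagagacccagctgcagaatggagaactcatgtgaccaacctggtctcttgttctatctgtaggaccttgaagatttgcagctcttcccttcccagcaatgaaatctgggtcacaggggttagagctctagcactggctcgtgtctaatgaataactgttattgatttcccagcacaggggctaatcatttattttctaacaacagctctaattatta

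The promoters of Saa1 and Saa2 were 95.3% identical over their 300 bases and shared the match TTGCACAA, 182 to 175 bases upstream of the start of Saa1 and 183 to 176 upstream of that of Saa2. A further match, TTTCCCAA, lay 86 to 79 bases upstream of Saa1 and not in Saa2. Orm2 held the palindrome TTGCGCAA 120 to 113 bases upstream, and the match of Apcs to the STAT palindrome, TTCTAGGAA, lay 244 to 236 bases upstream. The promoter of Saa3 held 4 matches to TTNNGNAA, those of Saa4, Orm2 and Hpx 2 each, and that of Lcn2 1. All other pairs of these 8 promoters were between 41.3% and 48.9% identical.

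Saa1, Saa2 and Saa3 showed the widest spread among control mice, with coefficients of variation between 16.7% and 22.8%, while that of Saa4 was 3.63%. Saa1 had normalized counts of 110883, 155393 and 174905 in GalNAc-siNC mice 1 to 3 and of 69673, 70118 and 69013 in GalNAc-siRnf10 mice 1 to 3. The control mice were spread wide while the treated mice were almost level, and the lowest control was 1.58 times the highest treated mouse. The mean went from 147060 ± 32815 to 69602 ± 556 (SD, n = 3 each), a 2.11-fold difference, with a log2 fold change of -1.08 (SE 0.181; edgeR adjusted p = 0.0221). Saa1 lost its call when any 1 of 4 libraries was left out, at nearly the same fold: the edgeR adjusted p was 0.0982 without GalNAc-siNC mouse 2 and 0.0661, 0.0644 and 0.0589 without GalNAc-siRnf10 mouse 1, 2 and 3 in turn.

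Saa2, the neighbour of Saa1 transcribed away from it, behaved in the same way with a larger fold. Its counts were 114660, 143023 and 160986 in the control mice and 58026, 57134 and 56054 in the treated mice. The order of the control mice was that of Saa1, and the lowest control was 1.98 times the highest treated mouse. The mean fell 2.45-fold, from 139556 ± 23357 to 57071 ± 988 (log2 fold change -1.29, SE 0.12, edgeR adjusted p = 0.000779).

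Saa3, the form made mainly outside the liver, was the least abundant of the cluster and had the same order of control mice as Saa1 and Saa2. It had 4684, 6584 and 7469 normalized counts in the control mice and 2706, 2923 and 2806 in the treated mice. The log2 fold change was -1.15 (SE 0.178; edgeR adjusted p = 0.012), a 2.22-fold difference, and the adjusted p was 0.0785 without GalNAc-siNC mouse 2. Saa4, the constitutive form, differed from the other 3 in both size and spread. It had 30420, 29410 and 28290 counts in the control mice and 18977, 19214 and 17965 in the treated mice. GalNAc-siNC mouse 1, the lowest control for Saa1 to Saa3, was here the highest. Its mean fell 1.57-fold, from 29373 ± 1066 to 18718 ± 663 (log2 fold change -0.65, SE 0.0534, edgeR adjusted p = 1.74e-07).

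Lcn2 lies at chr2:32384633-32388252 (GRCm38, minus strand). Its counts were 15100, 15214 and 16309 in the control mice and 5809, 5929 and 5448 in the treated mice. Both groups were tight, with coefficients of variation of 4.3% and 4.37%, and the lowest control was 2.55 times the highest treated mouse. The log2 fold change of -1.44 (SE 0.0586; edgeR adjusted p = 2.46e-11) was the 36th lowest of the 14046 tested genes.

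The orosomucoid genes fell by unequal amounts. Orm1 had 61135, 80104 and 81745 normalized counts in the control mice and 46844, 45607 and 46270 in the treated mice. GalNAc-siNC mouse 1 stood nearer in count to the treated mice than to the other controls, without overlap. The log2 fold change of Orm1 was -0.68 (SE 0.105; edgeR adjusted p = 0.00457), and the adjusted p was 0.0667 without GalNAc-siNC mouse 2. Orm2 had 13560, 16646 and 17270 counts in the control mice and 6698, 6477 and 6129 in the treated mice. In Orm2 the lowest control was 2.02 times the highest treated mouse, and the log2 fold change was -1.30 (SE 0.0811; edgeR adjusted p = 9.08e-08).

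Hp and Hpx, the scavengers of haemoglobin and haem, were the most abundant of the 10 and had the smallest folds. Hp (chr8:109575128-109579172, minus strand) had 286788, 372575 and 359154 counts in the control mice and 219768, 224257 and 217890 in the treated mice. Mouse 1 was again the low control, and the mean fell 1.54-fold (log2 fold change -0.62, SE 0.0891, edgeR adjusted p = 0.00204). Hpx (chr7:105591613-105600137, minus strand) had 389089, 449299 and 442522 counts in the control mice and 298945, 306096 and 295381 in the treated mice. Its mean fell 1.42-fold (log2 fold change -0.51, SE 0.0543, edgeR adjusted p = 4.51e-06), and the lowest control was 1.27 times the highest treated mouse.

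Apcs (chr1:172893961-172895041, minus strand) had 14391, 14974 and 16004 normalized counts in the control mice and 7314, 7608 and 7126 in the treated mice. The groups were tight and well apart, with a log2 fold change of -1.04 (SE 0.0582; edgeR adjusted p = 1.88e-09). Crp, the gene of the related pentraxin C-reactive protein and a neighbour of Apcs within 100 kb, had means of 11621 ± 297 and 11170 ± 47.6 and did not pass (log2 fold change -0.06, SE 0.0525, edgeR adjusted p = 0.537). Crp is a minor acute phase protein in the mouse, where serum amyloid P is the inducible pentraxin.

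**Figure D2:**
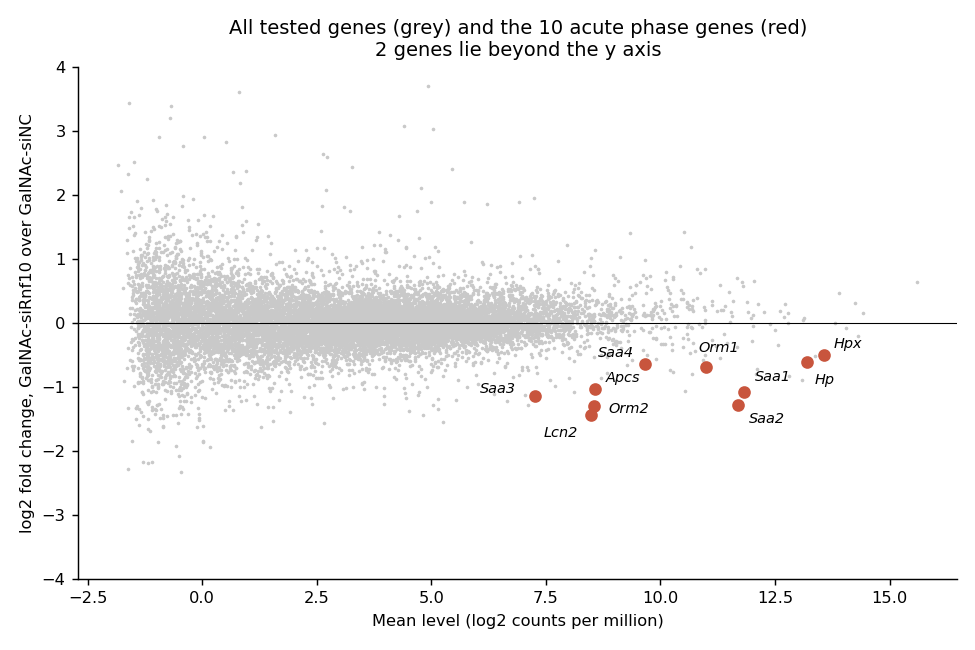
Log2 fold change of GalNAc-siRnf10 over GalNAc-siNC against mean level in log2 CPM (counts scaled to a common library size) for the 14046 tested genes (grey), with the 10 acute phase genes in red. The 10 genes lie in the abundant part of the plot, with log2 fold changes between -1.44 (Lcn2) and -0.51 (Hpx), and 2 genes lie beyond the y axis.

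GalNAc-siNC mouse 1 was the lowest control for 9 of the 10 genes, but not by the same amount. Relative to its group mean on the log2 scale, it deviated by -0.39 for Saa3, -0.38 for Saa1, -0.27 for Saa2 and Orm1, -0.23 for Hp, -0.21 for Orm2 and -0.13 for Hpx. For Apcs and Lcn2 the deviation was only -0.07 and -0.04, and for Saa4 it was 0.05. The median of the 10 genes in the control mice was -0.22, 0.08 and 0.11, while in the treated mice it was 0.01, 0.03 and -0.02. The median absolute deviation over all tested genes was 0.123, 0.11 and 0.0924 in the control mice and 0.0681, 0.0674 and 0.0706 in the treated mice, so the wider spread of control mice was seen across all genes as well.

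**Figure D3:**
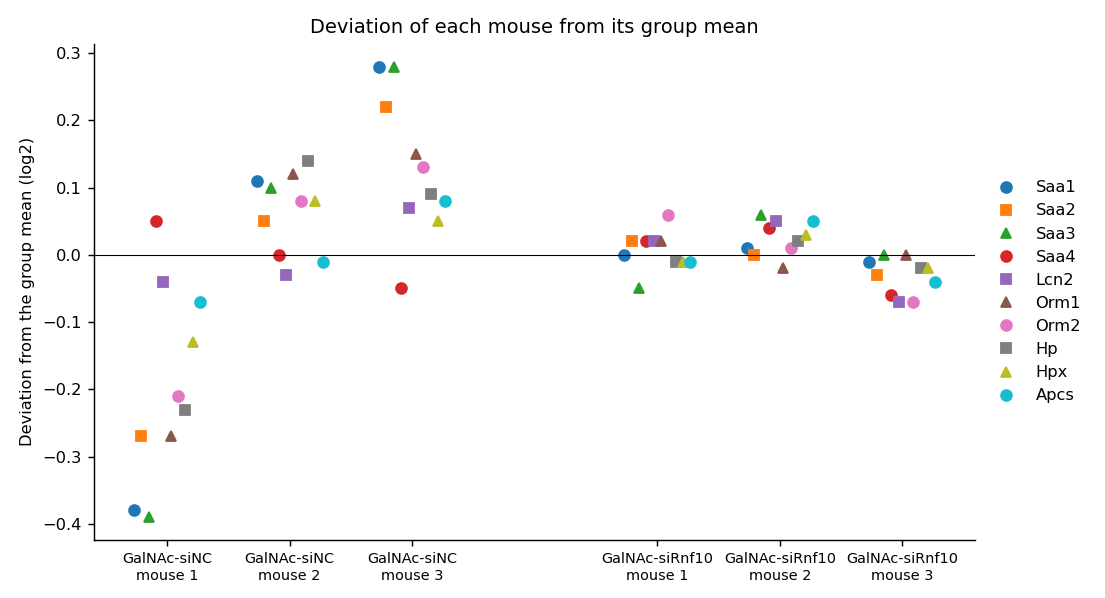
Deviation of each mouse from its group mean, in log2 normalized CPM, for each of the 10 genes. GalNAc-siNC mouse 1 lies below its group mean for 9 genes, down to -0.39 (Saa3), while no value of a GalNAc-siRnf10 mouse is beyond 0.07 from 0.

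Without GalNAc-siNC mouse 1 all 10 genes were called and 9 of the 10 folds were larger. The log2 fold change went to -1.25 for Saa1, -1.41 for Saa2, -1.32 for Saa3, -1.46 for Lcn2, -0.81 for Orm1, -1.40 for Orm2, -0.73 for Hp, -0.57 for Hpx and -1.08 for Apcs, and to -0.63 for Saa4. The order of the genes by fold changed in places, but the 4 with the smallest falls were the same, namely Orm1, Hp, Saa4 and Hpx.

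Ratios of neighbouring or related genes within a library do not depend on the normalization. The log2 ratio of Orm1 over Orm2, in counts per kilobase, was 2.17, 2.27 and 2.24 in the control mice and 2.81, 2.82 and 2.92 in the treated mice. Orm1 was thus between 4.51 and 4.81 times Orm2 in the control mice and between 6.99 and 7.55 times Orm2 in the treated mice. The difference of 0.62 (SE 0.0452) was larger than the spread between mice, and the groups did not overlap (exact two-sided permutation p = 0.1, the smallest that 3 against 3 allows, and 0.15 adjusted over the 3 ratios). The log2 ratio of Saa1 over Saa2 was -0.03, 0.14 and 0.14 in the control mice and 0.29, 0.32 and 0.32 in the treated mice, a difference of 0.22 (SE 0.0571) without overlap (exact permutation p = 0.1, adjusted 0.15). For Hp over Hpx the groups overlapped, with -0.54, -0.37 and -0.40 in the control mice and -0.54, -0.55 and -0.54 in the treated mice (difference -0.11, SE 0.0523, exact permutation p = 0.2, adjusted 0.2). The low control value was that of GalNAc-siNC mouse 1 in all 3 ratios. Without that mouse the differences were 0.59 for Orm1 over Orm2, 0.17 for Saa1 over Saa2 and -0.16 for Hp over Hpx (exact permutation p = 0.2 for each).

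**Figure D4:**
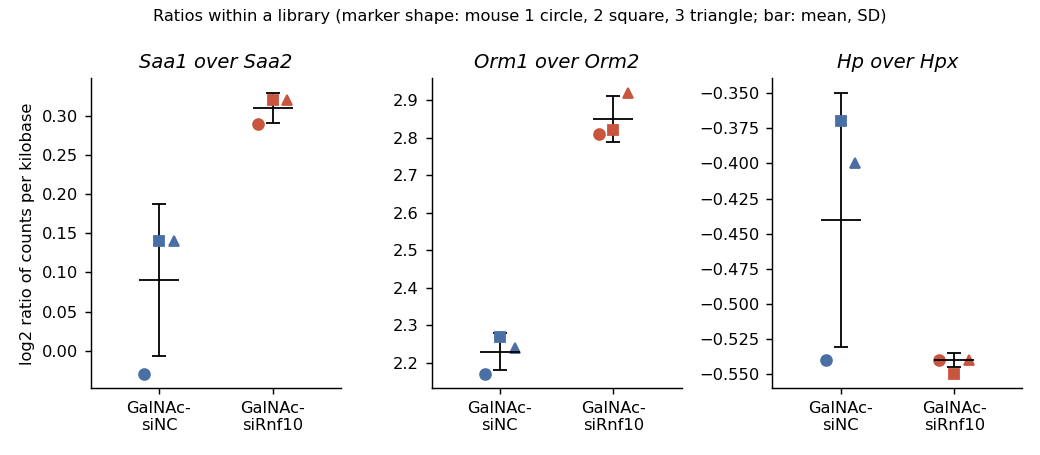
Log2 ratio of counts per kilobase of 2 genes in the same library, by mouse, with the mean and SD of the 3 mice of a group; each panel has its own y axis. The treated mice lie above the control mice for Saa1 over Saa2 and for Orm1 over Orm2, while GalNAc-siNC mouse 1 lies among the treated mice for Hp over Hpx.

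Together the 10 genes made up 3.62%, 4.38% and 4.42% of all counts in the control livers and 2.42%, 2.47% and 2.42% in the treated livers. The mean share went from 4.14% ± 0.451 to 2.43% ± 0.0265 (SD, n = 3; exact permutation p = 0.1), and the groups stayed apart when any 1 of the 10 genes was left out. The difference was -1.70 percentage points with all mice and -1.96 without GalNAc-siNC mouse 1. By family, the serum amyloid A genes went from 1.1% to 0.491% of the counts, the orosomucoid genes from 0.308% to 0.175%, Hp and Hpx from 2.62% to 1.73%, Lcn2 from 0.0532% to 0.019% and Apcs from 0.0518% to 0.0244%. The make-up of the set shifted toward Hpx, which held 35.4% ± 1.77 of the summed counts in the control mice and 40.8% ± 0.196 in the treated mice. Saa2 held 11.5% ± 0.729 and then 7.77% ± 0.118. A share also moves with the other abundant transcripts, such as albumin, which rose. Outside the 20 most abundant other genes, the 10 genes went from 5.5% ± 0.554 to 3.28% ± 0.0369 of the counts.

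Levels of different genes were compared as normalized CPM, divided by the length of the gene model in kilobases. Hpx was the highest in the control mice (9600 ± 742, 5th of all tested genes), followed by Hp (7130 ± 969), Orm1 (3230 ± 498), Saa1 (2000 ± 446), Saa2 (1870 ± 313), Orm2 (688 ± 86.4), Apcs (525 ± 28.4), Saa4 (473 ± 17.2), Lcn2 (200 ± 8.58) and Saa3 (80.8 ± 18.4). The levels of Saa1 and Saa2 differed by less than their SDs. In the treated mice Hpx was at 6750 ± 123 (10th), Hp at 4630 ± 68.7, Orm1 at 2010 ± 26.9, Saa1 at 947 ± 7.56 and Saa2 at 764 ± 13.2. There Saa4 (301 ± 10.7) stood above Orm2 (280 ± 12.5) and Apcs (255 ± 8.44), and Lcn2 (73.6 ± 3.21) and Saa3 (36.4 ± 1.4) remained last. The gene models of Saa1 and Saa2, of 2478 and 2518 bases, include transcripts with retained introns and are longer than their first coding transcripts, of 609 and 606 bases. Per kilobase of the first coding transcript, Saa1 (8141 ± 1817) and Saa2 (7764 ± 1299) stood next to Hp (8510 ± 1157) in the control mice, and Lcn2 (573 ± 24.6) stood above Apcs and Saa4.

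The other genes of the response were read from lists of the same fit, for which the medians stand beside that of all tested genes, 0.0022. The counts called in each list stand beside the 7.28% of tested genes called lower and the 14.0% called in either direction. Of 22 other positive acute phase genes, all tested, 16 were called lower and none higher, and their median log2 fold change was -0.73. The 10 genes had a median of -1.06. The 3 fibrinogen chains Fga, Fgb and Fgg, which form the clot, had log2 fold changes of -0.90 (SE 0.0485), -0.83 (SE 0.0449) and -0.80 (SE 0.0503). Steap4, a metalloreductase induced by inflammation (-1.09, SE 0.0604), and Lrg1, a leucine-rich glycoprotein (-1.06, SE 0.159), fell about as far as Apcs. Lbp, which hands lipopolysaccharide to CD14, had -0.89 (SE 0.0562), and the central complement component C3 had -0.52 (SE 0.0487). Serpina3n, a protease inhibitor of a large family of similar genes whose counts may share reads, had -0.75 (SE 0.0547). The 6 that were not called included Crp and the hepcidin gene Hamp, which is an IL-6 and BMP target and had a log2 fold change of 0.39 (SE 0.125; edgeR adjusted p = 0.0948).

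Orm3, the third orosomucoid gene of the cluster, was far less abundant than its neighbours, with 192, 230 and 237 normalized counts in the control mice and 165, 167 and 129 in the treated mice. Its log2 fold change was -0.51 (SE 0.149; edgeR adjusted p = 0.0293), and it was not called when any 1 mouse other than GalNAc-siNC mouse 1 was left out. The pentraxin gene Ptx3 and the lipocalin gene Lcn4 had no counts in any library, and Lcn12 had at most 13 in any library, so they were not tested.

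Among 12 negative acute phase genes, all tested, 6 were called higher and 1 lower, with a median log2 fold change of 0.18. Those called higher were Alb (0.64, SE 0.0515), Ttr (0.66, SE 0.117), Rbp4 (0.60, SE 0.115), Serpina6 (0.42, SE 0.0578), Igf1 (0.22, SE 0.0551) and Ahsg (0.15, SE 0.0446), which encode albumin, transthyretin, retinol-binding protein, corticosteroid-binding globulin, insulin-like growth factor 1 and fetuin-A. Trf, which encodes transferrin, was called lower (log2 fold change -0.20, SE 0.0429). Without any 1 of the GalNAc-siRnf10 mice, 4 of the 12 were called. Calls across all genes then fell as well, from 1965 to between 1053 and 1128. Without GalNAc-siNC mouse 1, 2 and 3 in turn, 8, 5 and 8 of the 12 were called.

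**Figure D5:**
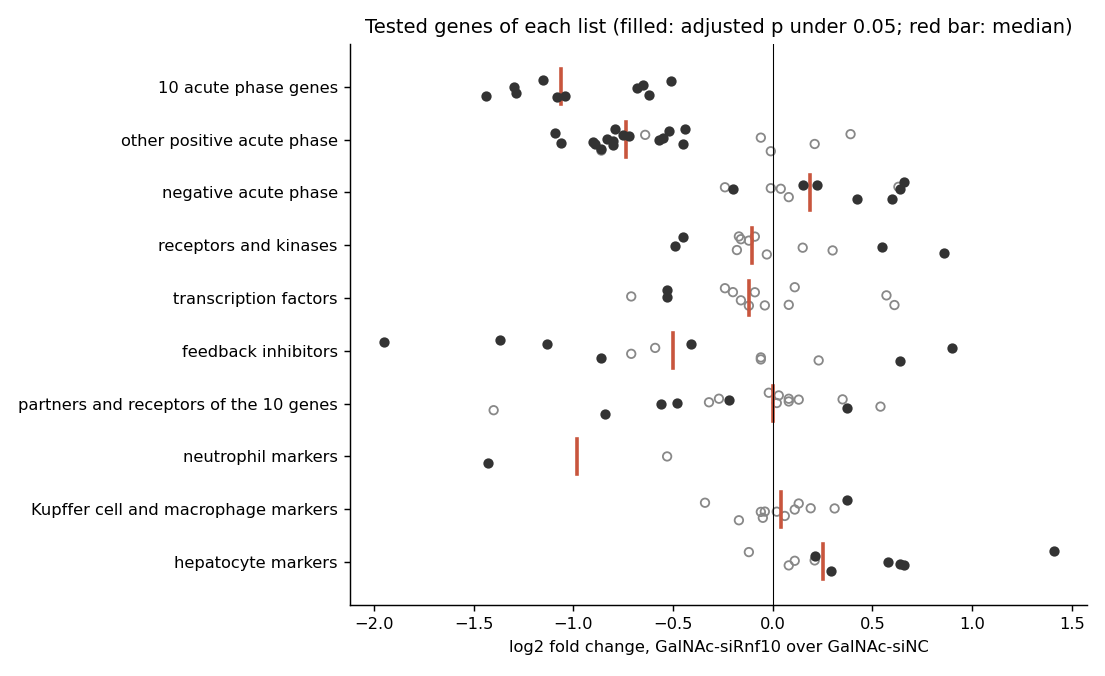
Log2 fold change of GalNAc-siRnf10 over GalNAc-siNC for each tested gene of 10 lists, with filled points for genes at an adjusted p under 0.05, open points for the others and a red bar at the median. The 10 acute phase genes all lie below 0 (median -1.06), as do 20 of the 22 other positive acute phase genes (median -0.73), while the negative acute phase genes have a median of 0.18.

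Transcripts of the cytokines that drive the response were barely present in these livers, and the cytokine proteins were not measured in these data. Of 9 ligands, Il1a and Il1b were tested and neither was called, with log2 fold changes of 0.22 (SE 0.275) and -0.38 (SE 0.323). The other 7 had at most 4 counts in any library, among them Il6 and Tnf. Osm and Il22 had none. A difference in those 7 was not detectable at this depth.

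Of 12 receptors and kinases, 2 were called lower and 2 higher (median -0.11). The IL-1 receptor gene Il1r1 and the TNF receptor gene Tnfrsf1a fell, with log2 fold changes of -0.45 (SE 0.0774) and -0.49 (SE 0.0703). The IL-6 receptor gene Il6ra rose by 0.55 (SE 0.0668) and the second TNF receptor gene Tnfrsf1b by 0.86 (SE 0.0819). Of 13 transcription factors, Stat3 (-0.53, SE 0.0629) and Foxa2 (-0.53, SE 0.0979) were called lower and none higher (median -0.12). An exon of Stat3 overlaps one of Stat5a on the other strand by 72 bases, where Stat5a had at most 623 counts. The C/EBP genes were not called: Cebpa had a log2 fold change of -0.16 (SE 0.142), Cebpb 0.57 (SE 0.354) and Cebpd 0.61 (SE 0.257). Cebpb had 1648, 3966 and 3141 normalized counts in the control mice and 4302, 4065 and 4621 in the treated mice. Exons of Cebpb and Cebpd overlap those of Tmem189 and Spidr on the other strand, by 312 and 562 bases. Without GalNAc-siNC mouse 1, 6 of the 13 transcription factors were called, while calls across all genes went from 1965 to 2864.

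Of 13 feedback inhibitors, 12 were tested, 5 were called lower and 2 higher (median -0.50). Socs3, the STAT3-induced inhibitor of IL-6 signalling, had 770, 1225 and 917 normalized counts in the control mice and 375, 363 and 384 in the treated mice. Its groups did not overlap, and the log2 fold change was -1.37 (SE 0.152; edgeR adjusted p = 0.000134). Cish, a STAT5-induced inhibitor of the same family, had a log2 fold change of -1.13 (SE 0.0864), the IL-1 receptor antagonist gene Il1rn -0.86 (SE 0.229) and Pias3 -0.41 (SE 0.124). Socs2, induced by growth hormone through STAT5, rose by 0.90 (SE 0.128), and Nfkbia, the NF-κB-induced inhibitor of NF-κB, rose by 0.64 (SE 0.104). Irak3 (-1.95, SE 0.365) had at most 80 counts in a library and shares 192 exon bases with Tmbim4 on the other strand, so its value is uncertain.

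Among 17 genes whose products bind or receive the 10 proteins, 16 were tested, 4 were called lower and 1 higher, with a median of 0. Lrp1, the receptor that clears haem-haemopexin, was called lower (log2 fold change -0.56, SE 0.0609). Scarb1, a receptor of high-density lipoprotein that also binds serum amyloid A, had -0.48 (SE 0.0678), Tlr2 -0.84 (SE 0.202) and the lipid exporter gene Abca1 -0.22 (SE 0.066). Cd163, the macrophage receptor for haptoglobin-haemoglobin, rose by 0.37 (SE 0.113), a call that was lost when any 1 mouse other than GalNAc-siNC mouse 1 was left out. Leaving out 1 mouse left as few as 2 of these called.

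In bulk liver, fewer cells of a type and less RNA per cell cannot be told apart, so markers of other cells were read beside the 10 genes. Of 10 hepatocyte markers, 6 were called higher, among them Alb and Ttr of the negative acute phase list, none lower, and 4 were not called. The summed level of the 10 was between 61600 and 65900 CPM in the control mice and between 88900 and 90700 in the treated mice. That sum is mostly Alb itself, with 1159043 and then 1805569 normalized counts on average. Neutrophils store lipocalin 2 in their granules. Of 12 neutrophil markers 2 were tested, and S100a9 was called lower, from 22.6, 46.4 and 45.5 to 15.8, 11.5 and 14.9 normalized counts (log2 fold change -1.43, SE 0.378, edgeR adjusted p = 0.0171). The summed level of the 12 was between 4.02 and 4.82 CPM in the control mice and between 2.53 and 2.61 in the treated mice, the other 10 markers had at most 22 counts in any library, and the granule gene Ltf had none in any. S100a9 lost its call when any 1 mouse other than GalNAc-siNC mouse 1 was left out.

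Kupffer cells and macrophages can express Saa3 and Lcn2. Of their 12 markers, all tested, Cd163 was called higher and none lower, and the summed level was between 258 and 311 CPM in the control mice and between 277 and 288 in the treated mice. Of 8 endothelial markers 2 (Clec4g and Lyve1) and of 8 stellate cell markers 2 (Reln and Dcn) were called higher, with none lower in either list. The median log2 fold change was 0.11 for the endothelial list, with 2 of 8 negative, and -0.15 for the stellate list, with 5 of 8 negative. The summed levels were between 91.9 and 96.4 and then between 93.4 and 98.4 CPM for endothelium, and between 123 and 129 and then between 136 and 140 for stellate cells. Among 6 cholangiocyte markers Spp1, which is also an inflammatory gene of other cells, was called lower, and the summed level was between 69.5 and 70.9 and then between 37.5 and 38.2 CPM. That sum is mostly Spp1 itself, with 1836 and then 982 normalized counts on average against 131 and 89.7 for Sox9 and under 30 for each of Krt19, Krt7 and Epcam. The median log2 fold change of this list was -0.26, with 5 of the 5 tested markers negative. Sox9 was not called (log2 fold change -0.54, SE 0.181, edgeR adjusted p = 0.0555), although its groups did not overlap. Of 8 T and B cell markers 3 were tested and none was called (5.45 to 6.2 and then 4.3 to 5.59 CPM). Saa3 is also known from fat, and of 6 adipocyte markers Adipoq, Plin1 and Lep had no counts in any library, with a summed level of 2.43 to 3.36 and then 3 to 3.95 CPM. The part of these cell types in the values of the 10 genes was not tested.

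Genes with a profile over the 6 libraries most like that of each of the 10 were sought among 10936 genes by the root mean square distance between centred log2 CPM. Several of the 10 were each other's nearest genes. Saa1 and Saa3 were the closest of all to each other (distance 0.0469), as were Saa2 and Orm2 (0.0498), and the nearest of the 10 to Orm1 was Hp (0.0475, 2nd of all genes). Apcs, Saa4 and Lcn2 were the farthest from any other of the 10: the nearest to Apcs was Orm2 (0.149, 49th of all genes), the nearest to Saa4 was Hpx (0.118, 169th) and the nearest to Lcn2 was Orm2 (0.117, 4th). Among genes outside the set, Id3 was nearest to Saa1 (0.0629), Dnajc12 to Saa2 (0.0981) and Orm2 (0.0761), Prtn3 to Saa3 (0.0936), Litaf to Saa4 (0.0301), Klf10 to Lcn2 (0.0791), Crip2 to Orm1 (0.041), Paqr3 to Hp (0.0248), Ldha to Hpx (0.0285) and Cyb561 to Apcs (0.0645). Rnf10 was the 3rd of the genes outside the set nearest to Orm2 (0.108). These distances over 6 libraries rest mainly on the difference between the groups and on GalNAc-siNC mouse 1, and are a description.

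The genes that flank the 10 were read from the same fit. Within 100 kb of the 6 loci lay 51 other genes, of which 31 were tested, 2 were called lower and 1 higher, in a table where 7.28% of tested genes were called lower and 14.0% in either direction. Those called lower were Orm3 and the lactate dehydrogenase gene Ldha beside the serum amyloid A cluster (log2 fold change -0.51, SE 0.0537), and the one called higher was Swi5 beside Lcn2 (0.34, SE 0.0901). These flanks were chosen after the values of the 10 genes had been seen.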

How the data were processed

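Liver RNA of 3 GalNAc-siNC and 3 GalNAc-siRnf10 mice was measured with stranded mRNA libraries and paired reads of 150 bases. The authors mapped reads with HISAT2 to GRCm38 and deposited a raw count for each gene, not normalized, beside the length of each gene model. The counting tool, the strand setting and the annotation release were not given in the sources used here. Samples were grouped by their labels. In R 4.3.3, counts were filtered with filterByExpr by group, scaled by TMM and tested with edgeR 4.0.16 (robust quasi-likelihood F-test, treatment as the only covariate), with Benjamini-Hochberg adjustment over all 14046 tested genes and a call at an adjusted p under 0.05. SE is the standard error of a log2 fold change. Normalized counts were scaled to the mean effective library size. The fit was tested on simulated counts. Replicates are single mice. The edgeR test sets the difference between groups against a spread between mice that is estimated partly from all tested genes. Symbols and transcripts came from GENCODE M21 (346 of 55487 identifiers had no symbol), promoters from RefSeq.

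The 10 genes and all lists were chosen with earlier results of these data known. Named were the 10 genes, Rnf10, called genes of a list, genes of lists of 5 or fewer, and for each of the 10 the nearest profiles among genes that averaged 50 or more normalized counts. Hamp, Cebpa, Cebpb, Cebpd, the untested markers and ligands, and Il1a and Il1b were named after their values were seen. So were Sox9, Krt19, Krt7 and Epcam. Alternatives were RLE and upper quartile scaling, TMM without acute phase genes, other count filters, DESeq2 1.42.0, voom in limma 3.58.1, GC content and length offsets, the mouse number as a block, a threshold of 0.01 and leaving out each mouse. Single values were tested by exact two-sided permutation (scipy 1.17.1). Figures were drawn with matplotlib 3.10.9.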

Additional observations from a re-analysis of the deposited data

How the results depend on the processing

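All 160 values of the log2 fold changes of the 10 genes under 16 alternatives were negative, and 7 genes were called in each (Saa2, Saa4, Lcn2, Orm2, Hp, Hpx and Apcs). Saa1 with no filter on low counts had -1.08 (edgeR adjusted p = 0.0539), and leaving out 1 mouse gave between -1.25 and -0.94 for Saa1, between -1.32 and -1.01 for Saa3 and between -0.81 and -0.61 for Orm1. Of the 10 genes, 9 were called with no filter, 8 at an adjusted p under 0.01 and between 7 and 10 without 1 mouse. The labels do not say whether mice with the same number were paired. The deviations of same-numbered mice correlated at -0.003, 0.023 and -0.033. These values show no large effect shared by same-numbered mice, but cannot show that the animals were unpaired. With the number as a replicate block 1816 genes were called against 1965, and 10 of the 10. GC content and length offsets took Orm2 to -1.52, Apcs to -1.28 and Orm1 to -0.90. Across all genes, 1042 were called at an adjusted p under 0.01 (502 higher, 540 lower), and without 1 mouse between 1053 and 2864 (520 to 1395 higher, 533 to 1469 lower). Without 1 mouse the counts of called genes were 0 to 1 for the paralogs, 4 to 8 for the negative acute phase list, 2 to 6 for transcription factors, 2 to 5 for partners and receptors, 0 to 1 for neutrophils, 0 to 2 for Kupffer cells, 1 to 2 for endothelium, 1 to 2 for stellate cells and 1 to 2 for cholangiocytes. With the block they were 0 for Kupffer cells, 1 for endothelium and 2 for cholangiocytes, and with DESeq2 1 for endothelium. The summed share fell by 2.22 percentage points outside the 20 most abundant other genes. With the length of the first coding transcript, a choice made after seeing the data, control levels per kilobase were 8141 for Saa1, 7764 for Saa2, 379 for Saa3, 573 for Lcn2 and 8510 for Hp. The causes of these changes were not tested.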
